A study of Homo sapiens with 4 samples.

Results

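The m6A peaks described here lay wholly within the 3′ untranslated region (3′ UTR), the stretch of a messenger RNA between the stop codon and the poly(A) tail. They were taken from 1 peak list for A549, an established human lung adenocarcinoma line labelled as sensitive to cisplatin, and 1 for A549/DDP, its cisplatin-resistant counterpart (DDP stands for cisplatin). MeRIP-seq enriches RNA fragments with an antibody to N6-methyladenosine (m6A), and a peak is a stretch where the enriched library exceeds the input library. A peak was kept when every region label it carried, on every transcript it was listed for, was the 3′ UTR. This held for 9714 of 32069 distinct peaks in A549/DDP and for 8989 of 27319 in A549, together 18703 of 59388. Each line had 1 immunoprecipitated and 1 input library. No difference between the lines therefore had a replicate check, no test between them was made, and every value describes these libraries. Both lines grew in DMEM with fetal bovine serum and antibiotics. The labels name no cisplatin in the medium and do not say how the resistant line was made or whether it is a clone.

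m6A is placed on nuclear transcripts by a methyltransferase complex built around METTL3 and METTL14, and is known to gather near stop codons and in long last exons, of which the 3′ UTR is usually the main part. Marks in the 3′ UTR can be bound by YTH-domain readers, which shorten the life of the transcript, or by IGF2BP proteins, which prolong it. The 3′ UTR is also where microRNAs, AU-rich element binding proteins and the cleavage and polyadenylation machinery act.

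The lists gave a fold enrichment and a p-value per peak, which are the authors' own values. These values serve here to rank, filter and describe peaks. The lists held no read counts, so depth is unknown. A gene without a peak may have had too little transcript, which cannot be told apart from a lack of the mark. Where folds of both lists are set side by side, they describe the lists and do not measure a change between the lines. Positions are on hg19, counted from 1, and intervals are exact binomial 95% intervals that cover counting error only. They are too narrow, since isoforms of a gene give overlapping peaks. Many peaks carried identical values: 41.5% of the 3′ UTR peaks of A549/DDP and 41.4% of those of A549 had a fold and p that also occurred at another gene of the list. At 4.24% and 4.95% of them the list held a peak of a gene on the opposite strand over some of the same bases. No source used here says whether peaks were called by strand.

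The 3′ UTR peaks were short, nearly all unspliced and mostly of moderate enrichment in both lines. Their median exonic length was 180 bases in each list, with quartiles of 120 and 271 in A549/DDP and 120 and 296 in A549, against 328 and 329 bases for peaks that ran from coding sequence into the 3′ UTR. Only 0.762% and 0.979% crossed a splice junction, against 49.7% and 50.5% of coding peaks. The median fold of the A549/DDP 3′ UTR peaks was 3.48, with quartiles of 2.43 and 5.58 and a highest value of 68.0. For A549 it was 3.63, with quartiles of 2.48 and 6.88 and a highest value of 160. The median of the authors' p was 5.13e-07 in each list. Peaks that overlapped on the same strand were also merged, which left 5202 and 4915 regions of the 3′ UTR.

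A smaller part of the A549/DDP list than of the A549 list was confined to the 3′ UTR. For A549/DDP the share was 30.3% of peaks (29.8 to 30.8), and for A549 it was 32.9% (32.3 to 33.5). In absolute number A549/DDP had 1.08 times as many 3′ UTR peaks as A549, and 1.02 times as many peaks from coding sequence into the 3′ UTR. It had 1.19 times as many coding peaks, 1.92 times as many peaks across the 5′ UTR and coding sequence, and 2.01 times as many 5′ UTR peaks. The lower share in A549/DDP was not particular to the 3′ UTR. Peaks from coding sequence into the 3′ UTR made up 19.4% of the A549/DDP list and 22.4% of the A549 list. Among peaks that touched no 5′ UTR the 3′ UTR shares were 35.1% (34.5 to 35.6) and 35.9% (35.3 to 36.5). With the peaks of each list divided into 3 equal groups by transcript length, the share on the shortest transcripts was 24.4% in A549/DDP and 26.0% in A549. It was 34.1% and 35.6% on those of middle length, and 32.4% and 37.1% on the longest.

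The lists also differed in where the 3′ UTR peaks ranked by fold. Of the highest 10% of A549 peaks by fold (down to 12.4), 43.3% (41.4 to 45.2) were 3′ UTR peaks, the largest share of any 10% step of that list. In A549/DDP the highest 10% (down to 11.7) held 28.7% (27.1 to 30.3), below the 36.2% and 35.2% of the lowest 2 steps. Both bounds cut through tied folds, which were ordered by p. The value pair most frequent at A549 3′ UTR peaks had a fold of 12.4. It belonged to 203 peaks, 92 of them in the 3′ UTR. In A549/DDP the most frequent pair had a fold of 15.2 and belonged to 160 peaks, 67 of them in the 3′ UTR. Folds of at least 30, a bound chosen after the values were seen, belonged to 302 peaks of A549/DDP, of which 70 (23.2%, 18.5 to 28.4) were 3′ UTR peaks in 44 genes. In A549 they belonged to 323 peaks, of which 185 (57.3%, 51.7 to 62.7) were 3′ UTR peaks in 124 genes. At a fold of at least 5, 29.9% of the 3′ UTR peaks remained in A549/DDP, where 34.9% of all peaks did, and 34.7% remained in A549, where 33.9% of all peaks did. Ranked by p, the picture was alike in both lists: the 10% of peaks with the smallest p held the lowest share of 3′ UTR peaks, 16.6% in A549/DDP and 21.6% in A549, against 35.9% and 36.6% in the 10% with the largest p.

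**Figure D1:**
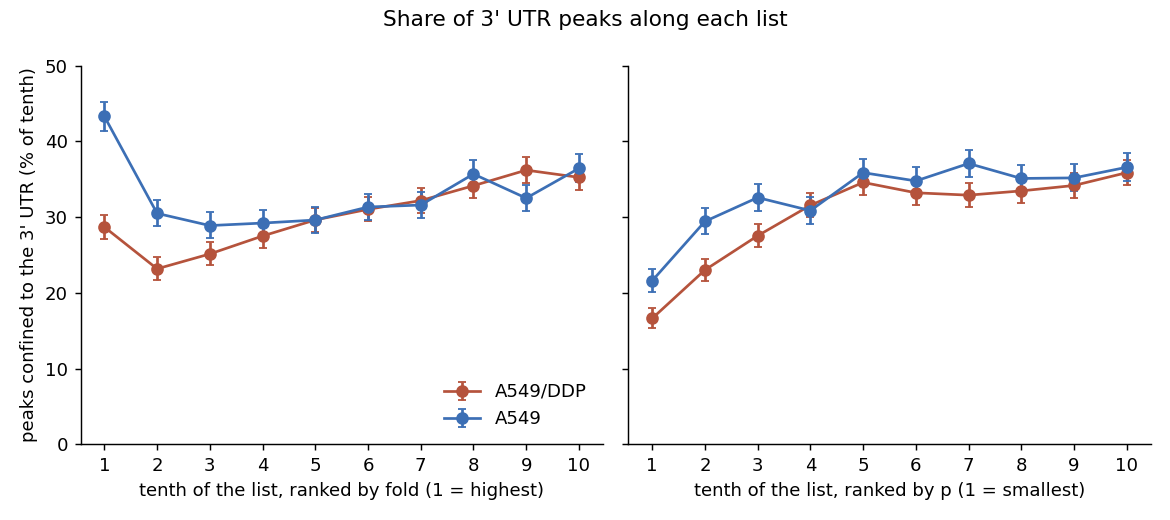
Share of each 10% step of a peak list that was confined to the 3′ UTR, with peaks ranked by the authors' fold (left) or p (right); points are percentages and bars exact binomial 95% intervals. At the highest folds the A549 list reached 43.3% and the A549/DDP list 28.7%, while by p both lists were lowest in the first step.

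The next comparison asked whether a 3′ UTR site marked in the sensitive line was also marked in the resistant one, and the reverse. A peak counted as shared if at least 1 exonic base overlapped a peak of any kind in the other list on the same strand. Of the 3′ UTR peaks, 2986 of A549/DDP (30.7%, 29.8 to 31.7) and 2545 of A549 (28.3%, 27.4 to 29.3) had no counterpart. Over all peaks these shares were 32.8% and 22%. The 3′ UTR peaks without a counterpart thus differed in number by a ratio of 1.17 between the lines. Peaks from coding sequence into the 3′ UTR were close to this with 1.27, and over all peaks the ratio was 1.75. Coding peaks differed by 1.94 and 5′ UTR peaks by 5.54. Coding peaks had no counterpart in 41.2% of cases in A549/DDP and 25.2% in A549, and 5′ UTR peaks in 62.9% and 22.8%. Of peaks from coding sequence into the 3′ UTR 13.8% and 11.0% had none. The order of the lines was not stable. When each list was cut to its 13659 peaks of smallest p, 22.3% of the 3′ UTR peaks of A549/DDP and 36.1% of those of A549 had no counterpart, and at a fold of at least 5 these shares were 43.6% and 47.9%. The shares over all peaks were not computed at these cuts. Whether the order turned for other classes too is therefore not known.

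**Figure D2:**
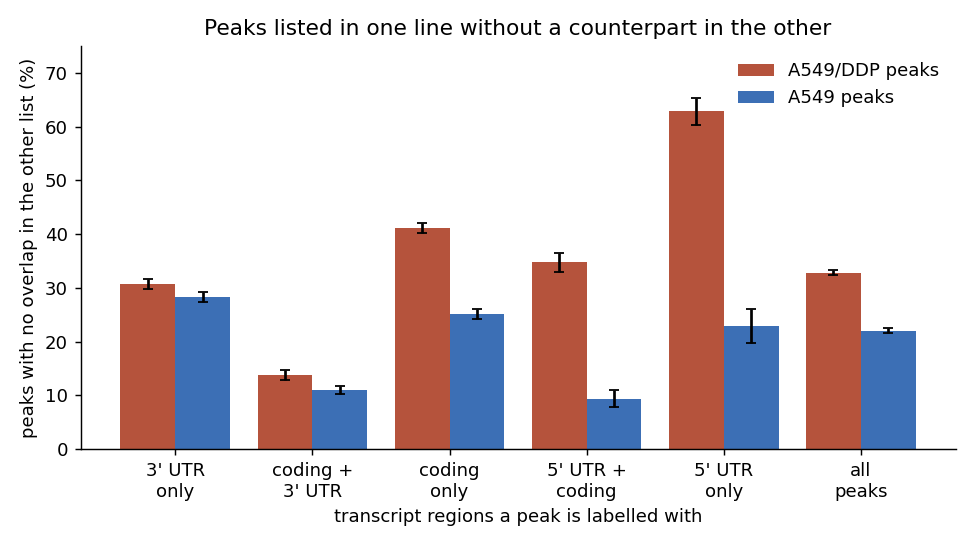
Percentage of peaks with no overlapping peak in the other list, by the transcript regions a peak was labelled with; bars are percentages of the peaks of that class and error bars exact binomial 95% intervals. For 3′ UTR peaks the lines stood at 30.7% and 28.3%, and for peaks from coding sequence into the 3′ UTR at 13.8% and 11.0%. For coding and 5′ UTR peaks A549/DDP stood well above A549.

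The share of 3′ UTR peaks with a counterpart fell steadily with rising p and showed no such course along the fold. Of the 10% with the smallest p, A549/DDP shared 99.5% (98.8 to 99.8) and A549 shared 97.1% (95.8 to 98.1). Of the 10% with the largest p 37.1% and 38.4% were, and the share fell at each step between. Ranked by fold, the highest 10% were shared in 64.8% and 72.6% of cases and the lowest 10% in 64.2% and 64.5%. In A549 the lowest share was that of the second 10% by fold, 54.7%. That step ran from 8.67 to 14 and held the often repeated fold of 12.4. Shared 3′ UTR peaks were longer, with a median of 210 bases in each list against 121 for those without a counterpart. This was not particular to the 3′ UTR. Over all peaks the medians were 270 against 150 bases in A549/DDP and 241 against 121 in A549. Shared peaks of all classes also had the smaller median of the authors' p, 2.51e-12 against 7.76e-05 in A549/DDP and 5.31e-10 against 0.000115 in A549.

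**Figure D3:**
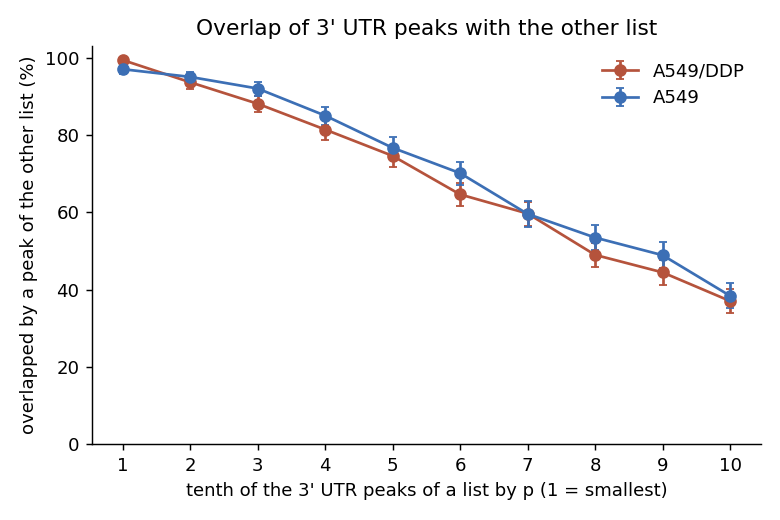
Percentage of 3′ UTR peaks overlapped by a peak of the other list, for each 10% step of the 3′ UTR peaks of a list ranked by the authors' p; bars are exact binomial 95% intervals. Both lines fell at every step, from 99.5% and 97.1% in the first to 37.1% and 38.4% in the last.

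Shared peaks overlap by definition, which bounds the distance between their centres. Between single-block peaks and their best counterpart the centres were a median of 30 bases apart in each direction of comparison, and within 60 bases for 73.0% of A549/DDP and 74.3% of A549 peaks. The best counterpart was itself confined to the 3′ UTR for 85.8% of the shared A549/DDP peaks, and ran in from coding sequence for 13.4%. For A549 these shares were 89.2% and 10.0%. Such pairs cover one site with different bounds, so a peak can count as 3′ UTR in 1 line and as a stop codon peak in the other.

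At 716 sites in 467 genes the bounds of a 3′ UTR peak were the same in both lists. Their folds ranged from 1.27 to 32.3 in A549/DDP (median 3.28) and from 1.29 to 97.5 in A549 (median 3.25). Across these sites Spearman's rank correlation between the folds was 0.84, a description over sites that share libraries and not a test. CD68, which encodes a glycoprotein of lysosomes, had folds of 28.2 and 97.5 at one site (chromosome 17, 7484898 to 7485429), with p of 4.37e-08 in the A549/DDP list and 1e-53 in the A549 list. PLCD3, a phospholipase C gene, had folds of 32.3 and 51.1 (chromosome 17, 43189009 to 43189932). CHMP6, a subunit gene of the ESCRT-III membrane-cutting complex, had 17.2 and 18.8 (chromosome 17, 78973636 to 78973933). LIAS, the lipoic acid synthetase gene, had 15.2 and 31.8 (chromosome 4, 39478800 to 39479273). PLCD3, CHMP6 and LIAS were chosen after their values were seen.

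**Figure D4:**
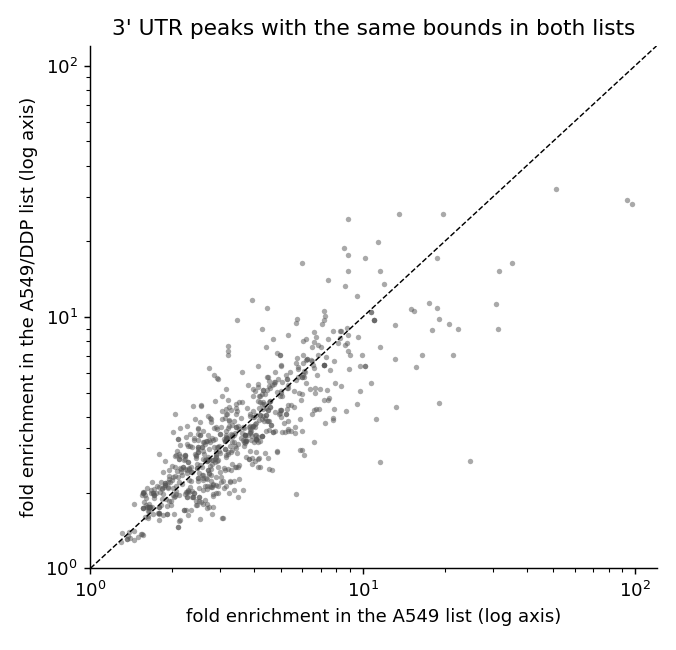
Fold enrichment in A549/DDP against that in A549 for the 716 3′ UTR peaks with the same bounds in both lists, 1 point per peak, on log axes with the line of equal folds dashed. Points spread on both sides of the line, and the points of highest A549 fold, which are those of CD68, lie below it.

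Genes with a 3′ UTR peak numbered 3870 of 7026 genes with any peak in A549/DDP (55.1%) and 3781 of 6450 in A549 (58.6%). In 1802 of the former (46.6%, 45.0 to 48.1) and 1992 of the latter (52.7%, 51.1 to 54.3) every peak of the gene in that list was confined to the 3′ UTR. In A549/DDP 27.3% also had a peak across the stop codon, 30.2% a coding peak and 18.6% a peak touching the 5′ UTR, and in A549 25.7%, 28.2% and 11.1% did. Of 2768 genes with a 3′ UTR peak in both lines, 1092 (39.5%) had no other kind of peak in either.

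By the authors' p, the strongest 3′ UTR peaks in both lines belonged to genes of several functions, and many had low folds. GAPDH and PKM, which encode enzymes of glycolysis, had peaks whose p was listed as 0 in each list. The GAPDH peak was 120 bases long with folds of 1.95 in A549/DDP and 1.71 in A549 (chromosome 12, 6647418 to 6647537), and the PKM peak had 2.64 and 3.01 (chromosome 15, 72491370 to 72491667 in A549/DDP). ITGA3, the integrin α3 gene, had folds of 6.27 and 8.29 (chromosome 17, 48167005 to 48167844 in A549/DDP), its A549/DDP fold and p recurring at CALM3. TM4SF1, a tetraspan membrane protein gene, had 5.76 and 4.46 (chromosome 3, 149086809 to 149087074), its A549 fold and p recurring at RPL13A. P4HB, a protein disulfide isomerase gene, had 3.26 and 3.72, and PA2G4 had 3.20 and 3.12. RPL28, a ribosomal protein gene, had 3.23 and 3.88 at a peak of 2 blocks (chromosome 19, 55899399 to 55899741). The SNX22 peak (3.38 and 4.16) lies over a stop codon peak of PPIB, a cyclophilin gene on the opposite strand, with folds of 3.36 and 4.12, so it cannot be assigned to SNX22.

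By fold, the leading genes were others. The ranking used the highest fold at a 3′ UTR peak with a p below the median of 5.13e-07, and such folds can sit at different sites of a gene. ARHGAP1, a GTPase-activating protein gene, stood first with 68.0 in A549/DDP and 109 in A549. IFNAR1, a chain of the type I interferon receptor, had 42.2 and 95.0 (chromosome 21, 34727861 to 34728159 with the A549 peak starting at 34727891). DPP9, a dipeptidyl peptidase gene, had 36.4 and 89.2 (chromosome 19, 4675238 to 4676252 in A549/DDP). SCAMP4, a secretory carrier membrane protein gene, had 43.4 and 78.5, and FKBP9, a prolyl isomerase gene, 35.2 and 160, the highest 3′ UTR fold of the A549 list (chromosome 7, 33045558 to 33046125). NME6 (32.8 and 80.1), MIEF1, a gene of mitochondrial dynamics (32.8 and 102), and ORAI2, a calcium channel subunit gene (35.2 and 66.1), followed. The MIEF1 fold in A549/DDP was one of several identical values in that list. RHOF (40.5 and 92.7) and TMEM120B (34.8 and 115) are convergent genes whose peaks lay over the same bases on opposite strands (in A549/DDP on chromosome 12, 122215783 to 122216527 for RHOF), so the signal cannot be given to either.

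The third comparison asked which genes had a 3′ UTR peak in 1 line. Of 4883 genes with such a peak, 2768 (56.7%, 55.3 to 58.1) had it in both lists, 1102 (22.6%, 21.4 to 23.8) in A549/DDP alone and 1013 (20.7%, 19.6 to 21.9) in A549 alone. Of all 7952 genes with a peak, that is 34.8%, 13.9% and 12.7%, whereas a peak of any kind was in both lists for 69.5%, in A549/DDP alone for 18.9% and in A549 alone for 11.6%. Which line had more of these genes depended on the threshold. At a fold of at least 5 there were 642 in A549/DDP alone and 732 in A549 alone, and in lists cut to equal length by p 451 and 753. Genes with a peak of any kind were not counted at these cuts. Of the 1102 A549/DDP genes, 663 had no peak of any kind in A549, and 439 had peaks of other classes there. Of the 1013 A549 genes these numbers were 596 and 417. In 200 of the 439 and 137 of the 417, the 3′ UTR peak was itself overlapped in the other list by a peak labelled otherwise.

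Of the 8 genes of highest fold with a 3′ UTR peak in A549/DDP alone, 7 had no A549 peak of any kind. PAX2, a developmental transcription factor gene, had 8 peaks and no other class of peak, with a fold and p (55.1, 3.16e-15) that recur at SH3BP4. The zinc finger gene ZNF211 had 5 peaks in 1 region (35.2) beside coding peaks. C19orf26 (now CBARP) had 4 peaks in 3 regions (34.0), with a 3′ UTR peak of STK11 on the other strand over one of them. LMLN, which encodes a metallopeptidase, had 30.5 (chromosome 3, 197767624 to 197767954), and OPRL1, the nociceptin receptor gene, 29.3 (chromosome 20, 62730288 to 62731127). C19orf26, COX6B2 (27.0) and ZNF436 (25.8) shared their fold and p with peaks of several other genes. NFKBIB, an inhibitor of NF-κB, had a fold of 25.2 (chromosome 19, 39398347 to 39399178), and A549 had a stop codon peak over the same site (39398341 to 39399531, fold 43.8).

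Of the 8 genes of highest fold with a 3′ UTR peak in A549 alone, 5 had peaks of other classes in A549/DDP. EHD2, which encodes a protein of caveolar membranes, had a 3′ UTR peak of fold 105 in A549 (chromosome 19, 48245137 to 48246391), inside a stop codon peak of A549/DDP (48244270 to 48246391, fold 40.6). SPC24, a kinetochore gene, had 45.4 (chromosome 19, 11256526 to 11257831) against a stop codon peak of 41.1, and AC006132.1 had 50.4 against 17.6. PRR11 had 68.6 at a 3′ UTR peak (chromosome 17, 57279003 to 57279301) and a stop codon peak of fold 10.6 in A549/DDP. For RPS6KA3, a ribosomal S6 kinase gene, the other line had peaks across the 5′ UTR and coding sequence only, with 38.0 at the 3′ UTR in A549 (chromosome X, 20171718 to 20171988). The other 3, PAQR7 (48.7), STOM (48.3) and ESYT2 (38.0), had no A549/DDP peak of any kind. Lower in that order, CCRN4L (now NOCT), a circadian gene, had 37.2 against a stop codon peak of 30.5. The reverse case, a 3′ UTR peak in A549/DDP over a site that A549 listed under another label, held for the transcription factor gene SOX4 (19.9 against 42.1), the neurotrophic factor gene NRTN (17.6 against 21.8), the calcium channel gene CACNA1G (15.2 against 7.43) and MTFMT, a gene of mitochondrial translation (14.9 against 44.6). The 3′ UTR peak of NKX2-5 in A549/DDP (14.5) lay apart from its A549 stop codon peak (9.09).

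Most genes carried 1 separate 3′ UTR region, and 1026 of A549/DDP (26.5%) and 871 of A549 (23.0%) carried 2 or more. OPA3, a gene of mitochondrial function, had the most in A549/DDP, 8 regions against 4 in A549, beside stop codon peaks in each list. With regions under 200 bases apart also merged it had 5 and 3, and CFLAR then had the most in A549/DDP, 6. CFLAR, which encodes the caspase-8 inhibitor c-FLIP, had 7 in each line before that merging. SMAD3, a signal transducer of TGF-β, had 6 in A549/DDP, the strongest with a fold of 6.47 and p of 6.31e-90 (chromosome 15, 67482901 to 67483767), and 2 in A549. The numbers for VPS53, a vesicle tethering gene, were 6 and 4, but 3 and 4 after it, so the order of the lines turned. For the transcription factor gene NFIC they were 5 and 6. In A549 POLR1A, the large subunit gene of RNA polymerase I, and FOXK1, a forkhead factor gene, had 8 regions each against 4 and 3 in A549/DDP, and PDXK, the pyridoxal kinase gene, had 6 against 3. In genes that also had a stop codon peak, 906 of 1501 3′ UTR regions of A549/DDP and 783 of 1328 of A549 lay beyond its end, at a median genomic distance of 743 and 725 bases.

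Gene lists were then described by how many members had a 3′ UTR peak in both lines or in 1, which over all 4883 genes with such a peak came to 56.7%, 22.6% and 20.7%. List sizes include members with no peak. Of all 7952 genes with a peak of any class, 61.4% had one in the 3′ UTR. Of the members with a peak of any class this share was 36.8% for cleavage and polyadenylation. It was 47.3% for chromatin regulators, 47.6% for Hippo, Wnt and Notch genes, and 48.7% for DNA repair. The share was 50% for m6A and for cell cycle genes, and 51.9% for 3′ UTR binding proteins. Redox genes had 56%, the microRNA pathway and mRNA decay 58.6%, and immediate early genes 62.9%. Receptor kinase genes had 70.3%, and genes of epithelial-mesenchymal transition 72.5%. For apoptosis and for platinum and drug transport it was 72.7%, for selenoproteins 75%, and for iron homeostasis 80%. Folds given for list genes are the highest at a 3′ UTR peak with p below the median, unless said otherwise. Some of these pairs of fold and p recur at other genes and are not marked each time. Examples are LIF in both lists, VEGFA and ZFP36 in A549/DDP, and RQCD1 in A549. Peaks of larger p reached 18.8 for ZFP36L1 in A549/DDP and 22.3 for CFLAR in A549. Of 26 genes for m6A writers, erasers and readers, 10 had a 3′ UTR peak: 3 in both lines, 5 in A549/DDP alone and 2 in A549 alone. Those in both were RBMX (folds 2.26 and 3.16, chromosome X, 135956117 to 135956385 in A549/DDP), the demethylase gene FTO (2.43 and 16.5) and the methyltransferase gene METTL16 (3.18 and 24.0), both with p above the median of 3′ UTR peaks in A549/DDP. The reader gene IGF2BP2 had 13 peaks in 3 regions of the 3′ UTR in A549/DDP (3.26, chromosome 3, 185361527 to 185361797) and no A549 peak of any class. Its relative IGF2BP1 had 1 in A549 (1.88) and none in A549/DDP. ALKBH5, the other demethylase gene, had 4 peaks in the 3′ UTR in A549/DDP (folds of at most 2.10, chromosome 17, 18113089 to 18113268) and only a coding peak in A549. METTL14, HNRNPA2B1 and YTHDF1 in A549/DDP and KIAA1429 (now VIRMA) in A549 had 3′ UTR peaks with p above the list's median for such peaks.

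Regulators that act through 3′ UTRs were described by 3 lists. Of microRNA pathway and mRNA decay members with a peak of any class, 17 of 29 (58.6%) had a 3′ UTR peak, close to the 61.4% of all genes. For 3′ UTR binding proteins these were 14 of 27 (51.9%), and for cleavage and polyadenylation 7 of 19 (36.8%). Among 43 genes of the microRNA pathway and mRNA decay, 12 had a 3′ UTR peak in both lines, 3 in A549/DDP alone and 2 in A549 alone. RQCD1 (now CNOT9), a subunit of the CCR4-NOT deadenylase, had folds of 5.23 and 6.96 (chromosome 2, 219459034 to 219459502 in A549/DDP). DGCR8, the partner of DROSHA in microRNA processing, had 4.13 and 4.92 at the same bounds in both lists (chromosome 22, 20099249 to 20099398). The nonsense-mediated decay genes UPF1 (3.84 and 5.53, at different sites), UPF2 (7.37 and 3.51), SMG1 and SMG5 had one in each line. SMG6 had one in A549 alone, and UPF3B had peaks of other classes only. AGO2, the slicer of the microRNA pathway, had 3.17 in A549/DDP and no A549 peak. Of 37 genes for 3′ UTR binding proteins, 8 had a peak there in both lines, 5 in A549/DDP alone and 1, ZC3H12A, in A549 alone. KHSRP, which binds AU-rich elements, had 5.74 and 5.03 at different sites, CELF1 2.98 and 3.01, and PTBP1 2.00 and 1.59. The PCBP2 peak (2.72 and 3.0) lay over a 3′ UTR peak of MAP3K12 on the other strand. ATXN2L had 2.49 in A549/DDP and only coding peaks in A549. Cleavage and polyadenylation genes had a 3′ UTR peak for 7 of 23 members, 5 in both and 2, CPSF3 and CPSF4, in A549 alone. CPSF7 had 6.23 and 4.06 (chromosome 11, 61170382 to 61170890 in A549/DDP), and PABPN1, whose peaks overlap those of a readthrough transcript, 3.06 and 3.24.

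Immediate early and AU-rich element genes, whose transcripts are known to be short-lived through their 3′ UTRs, had a 3′ UTR peak in both lines for 12 of 46 members, in A549/DDP alone for 6 and in A549 alone for 4. VEGFA, the angiogenic growth factor gene, had folds of 7.98 and 6.57 at different sites of its 3′ UTR (from 43752367 to 43752547 on chromosome 6 in A549/DDP, and starting at 43752905 in A549). ZFP36L1 (3.92 and 4.63) and ZFP36 (4.90 and 3.67) encode proteins that bind AU-rich elements and speed decay, and the cytokine gene LIF had 3.71 and 5.86. MCL1, an inhibitor of apoptosis, had 2.82 in A549/DDP, where A549 had stop codon and coding peaks. PLAU, the urokinase gene (2.78, over a C10orf55 peak of the other strand), and DUSP5, an ERK phosphatase gene (2.50), had stop codon peaks over the same sites in A549. KLF4 had 7.02 in A549 and no A549/DDP peak.

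Some transcripts of iron homeostasis, though not all in this list, carry iron-responsive elements in a 5′ or 3′ UTR. Transcripts of selenoproteins carry a selenocysteine insertion element in the 3′ UTR. Whether a peak lay near such an element was not tested. Of 15 iron genes, 6 had a 3′ UTR peak in both lines, 1 in A549/DDP alone and SLC11A2, which encodes the iron transporter DMT1, in A549 alone. The ferritin light chain gene FTL had folds of 1.32 and 1.45 (chromosome 19, 49470047 to 49470135 in A549/DDP). The heavy chain gene FTH1 had 2.06 and 1.93, over a 3′ UTR peak of BEST1 on the other strand. STEAP3, a ferrireductase gene, had 4.49 and 3.63 (chromosome 2, 120022421 to 120022720 in A549/DDP). IREB2 and ACO1, which encode the iron regulatory proteins, CDC42BPA and SLC11A2 had only 3′ UTR peaks with p above the list's median for such peaks.

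Of 25 selenoprotein genes, 7 had a 3′ UTR peak in both lines and 2 in A549 alone. SEPN1 (now SELENON) had folds of 37.5 and 28.1 (chromosome 1, 26143543 to 26144113 in A549/DDP), and SEPHS2, the selenophosphate synthetase gene, 8.75 and 6.18 (chromosome 16, 30454952 to 30455278 in A549/DDP). MSRB1 (2.72 and 3.47), C11orf31 (now SELENOH, 1.99 and 1.67) and the glutathione peroxidase genes GPX1 (1.71 and 2.34, chromosome 3, 49394609 to 49394756 in both lists) and GPX4 (1.40 and 1.53) had lower folds. TXNRD2 had peaks with p above that median in both lists. SEP15 (now SELENOF, 2.26) and SELO (now SELENOO, 4.58) had theirs in A549 with no A549/DDP peak of any class.

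Platinum and drug transport genes had a 3′ UTR peak for 8 of 22 members, 6 in both lines and 2 in A549/DDP alone. Only 11 of the members had a peak of any class. The copper transporter gene SLC31A1 had 3 separate regions in A549/DDP and 2 in A549 (7.04 and 10.5, although a peak of larger p in A549/DDP reached 12.9). The efflux pump gene ABCC1 had folds of 8.95 and 7.0, in 3 and 2 regions that became 1 in each line when those under 200 bases apart were merged. ATOX1, a copper chaperone gene, had 1.86 and 2.22 (chromosome 5, 151122356 to 151122625 in A549/DDP). CCS, the copper chaperone of superoxide dismutase, had 3.03 in A549/DDP under an A549 stop codon peak, and ABCC5 only peaks with p above the median. NRF2, glutathione and redox genes had 3′ UTR peaks in both lines for 10 of 32 members, in A549/DDP alone for 0 and in A549 alone for 4. NQO1, a quinone reductase gene, had 7.72 and 8.79 (chromosome 16, 69743809 to 69744255 in A549/DDP), GSS, the glutathione synthetase gene, 3.54 and 4.52 at the same bounds (chromosome 20, 33516236 to 33516386), and SRXN1, whose peaks overlap those of a readthrough transcript, 3.82 and 3.17. GSR, the glutathione reductase gene, had 2.64 and 3.08. The A549 genes included AKR1B10, an aldo-keto reductase gene (1.72, p of 1e-242), TALDO1, which encodes transaldolase of the pentose phosphate pathway (1.56), and AKR1C2. TALDO1 was listed in A549/DDP with another class of peak, whereas AKR1B10 and AKR1C2 had no A549/DDP peak. AKR1C2 has close paralogs, so its assignment is uncertain.

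DNA repair genes had a 3′ UTR peak for 19 of 53 members, 13 in both lines, 5 in A549/DDP alone and 1 in A549 alone. BRCA1 had folds of 7.71 and 22.3 (chromosome 17, 41196823 to 41197273 in A549/DDP), and the excision repair genes GTF2H5 (7.04 and 9.91), GTF2H1 (3.87 and 2.68) and DDB1 (2.94 and 2.07) also had theirs in both. XRCC3, a gene of homologous recombination, had 2.52 in A549/DDP and no A549 peak. FANCC, FANCI and MSH6 in A549/DDP and MLH3 in A549 had only peaks with p above the median. Genes of apoptosis and the damage response had a 3′ UTR peak in both lines for 13 of 46 members, in A549/DDP alone for 4 and in A549 alone for 7. MDM2, a ubiquitin ligase gene, had 6.86 and 10.7, with a CPM peak of the other strand over the site in A549/DDP. TNFRSF10B, a TRAIL receptor gene, had 8.68 and 9.40, with a RHOBTB2 peak of the other strand in A549/DDP, and CFLAR 30.5 and 5.37 at different sites, the first a value pair that recurs in other genes. GADD45B, a stress response gene, had 9.09 in A549 (chromosome 19, 2477601 to 2478257), BBC3, which encodes PUMA, 6.96 and PLK2 2.36, and all 3 had a stop codon peak in A549/DDP over the site or one with both UTRs.

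Genes of epithelial-mesenchymal transition, TGF-β and adhesion had a 3′ UTR peak in both lines for 14 of 50 members, in A549/DDP alone for 6 and in A549 alone for 9. SKI, a repressor of SMAD signalling, had folds of 9.38 and 10.5 (chromosome 1, 2241080 to 2241558 in A549/DDP), and CTNNB1, the β-catenin gene, 5.61 and 3.92. The integrin gene ITGA5 had 3.24 and 8.80 at neighbouring sites. In A549/DDP alone stood THBS1, the thrombospondin gene (4.03, p of 6.31e-50, chromosome 15, 39887690 to 39888318), and ITGB4 (4.44), the latter under an A549 stop codon peak. In A549 alone stood SKIL (14.6, chromosome 3, 170111930 to 170112169), ID2 (2.58) and the E-cadherin gene CDH1 (2.08). SKIL was listed in A549/DDP with another class of peak, whereas ID2 and CDH1 had no A549/DDP peak. Hippo, Wnt and Notch genes had 15 of 56 members in both lines, 3 in A549/DDP alone and 2 in A549 alone. NF2, which encodes merlin, had 37.5 and 19.4 (chromosome 22, 30093383 to 30093953 in A549/DDP), MOB1A, a cofactor of LATS kinases, 7.16 and 29.3, the Notch ligand gene JAG2 6.80 and 6.25 at the same bounds (chromosome 14, 105608038 to 105608666), and WNT7B 12.3 and 3.19 at different sites. TCF7L2, a Wnt transcription factor gene, had 3.83 in A549/DDP and was listed in A549 with another class of peak.

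Receptor kinase, RAS and PI3K genes had a 3′ UTR peak in both lines for 19 of 54 members, in A549/DDP alone for 4 and in A549 alone for 3. RPTOR, the mTORC1 scaffold gene, had folds of 12.5 and 18.0 (chromosome 17, 78939180 to 78940168 in A549/DDP), PIK3R2 9.85 and 13.5, the receptor kinase gene AXL 5.38 and 5.78 and FGFR1 5.35 and 5.33. HRAS had 8.39 in A549/DDP (p of 1e-153), and the A549 peak over it touched both UTRs. Cell cycle genes had a 3′ UTR peak in both lines for 14 of 50 members, in A549/DDP alone for 0 and in A549 alone for 4. The replication genes CDC6 (14.9 and 9.91), MCM3 (6.39 and 4.15) and MCM4 (4.66 and 4.34) had theirs in both. The CDK4 peak (16.4 and 33.5) lay over one of TSPAN31 on the opposite strand with a fold of 16.4 in A549/DDP. The A549 genes AURKB, CCNA2, CCNE2 and FOXM1 all had p above the list's median for 3′ UTR peaks.

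Chromatin regulators had a 3′ UTR peak in both lines for 15 of 68 members, in A549/DDP alone for 6 and in A549 alone for 5. The bromodomain gene BRD3 had folds of 7.04 and 5.58 at different sites, the remodeller gene CHD2 6.54 and 5.03, and the demethylase gene KDM2A 3.93 and 3.51. HDAC1 had 1.94 in A549/DDP and stop codon peaks in A549. ARID1A, a subunit gene of a chromatin remodelling complex, had its peak in A549 (2.68), with stop codon and coding peaks in A549/DDP. Of 14 lung epithelium genes 6 had a peak of any kind and 2 in the 3′ UTR, KRT8 (1.77 and 2.67) in both lines and CDH1 in A549. Of 15 markers of fibroblasts, endothelium and immune cells 2 had any peak, and CD68 had one in the 3′ UTR in both lines. Peaks do not measure expression, so the cell type label could not be checked further.

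**Figure D5:**
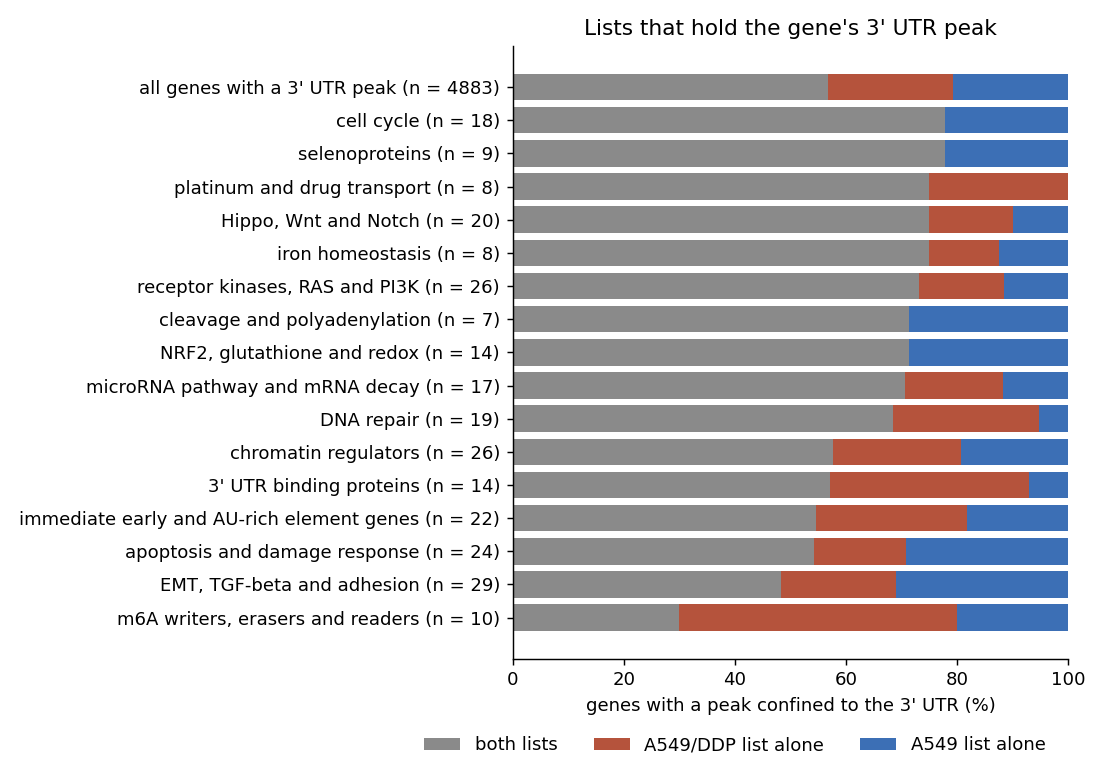
For each gene list with at least 5 such genes, the percentage of genes with a 3′ UTR peak that had it in both lists (grey), in A549/DDP alone (red) or in A549 alone (blue), with the number of genes in brackets. Over all genes the bar divides into 56.7%, 22.6% and 20.7%, and the red part is absent for the redox, cell cycle, selenoprotein and cleavage and polyadenylation genes.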

How the data were processed

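MeRIP-seq of A549 and A549/DDP comprised 4 libraries, 1 immunoprecipitated and 1 input library per line, made with a stranded mRNA kit per the labels' protocols. Alignment with HISAT2 on hg19 comes from the submitters' processing notes. Caller, threshold and annotation release are not given in any source used here. A list of peaks per line was deposited (33465 rows for A549/DDP and 28601 for A549), assumed to set immunoprecipitated against input RNA. Per the file headers, each row gives position, exon blocks, transcript length, region labels, a fold (a linear ratio) and a p-value, for which no adjustment is stated.

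Rows that agreed in position, strand and exon blocks were counted as 1 distinct peak, with the fold and p of its row of smallest p. Of 7957 symbols, 7829 matched a RefSeq table of GRCh38.p14, used for names only. Python 3.11.15, pandas 2.3.3 and scipy 1.17.1 were used. The overlap code was checked on 160000 pairs of real peaks with 0 wrong. Named genes were the leaders by fold, p or number of regions, and up to 4 per gene list in both lines and 3 in each alone by fold. All iron and selenoprotein genes with a peak were to be named. Some genes that the rule names are not reported here. Other genes were named after their values were seen. Members, the 18 gene lists and rules were chosen with earlier results of these data known. Alternatives were other thresholds, overlap rules, merging and chromosomes. Sequences were not analysed here.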

Additional observations from a re-analysis of the deposited data

How the results depend on the processing

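With 1 library per group no library could be left out, and no paired analysis was possible because the groups share only 1 replicate number. The 3′ UTR share of the list stayed lower in A549/DDP than in A549 under each of the 8 alternatives run on it, whereas the order of the lines turned for peaks without a counterpart and for genes in 1 line alone at folds of 5 or more and with equal numbers of peaks. Values are given for A549/DDP and then A549. The share of the list was 29.6% at folds of 2 or more (A549 32.4%), 26.0% and 33.7% at folds of 5 or more, 25.2% and 30.1% with the 13659 strongest peaks by p, 31.2% and 33.9% over rows of peak and transcript, and 36.6% and 40.4% of regions merged within each class. Without values that recur in another gene it was 29.4% and 31.2%, and without peaks that have an opposite-strand peak 29.8% and 32.3%, both chosen after seeing the data.

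The 3′ UTR peaks without a counterpart made up 32.7% and 30.2% at folds of 2 or more, 43.6% and 47.9% at folds of 5 or more, 22.3% and 36.1% with equal numbers, 32.3% and 31.1% of merged regions, 38.7% and 36.9% when 50% of a peak had to overlap, and 36.7% and 32.4% when only 3′ UTR peaks of the other list counted. Without recurring values they were 29.7% and 29.0%, and without opposite-strand pairs 31.9% and 28.7%. Such shares over all peaks were not computed under the alternatives. Genes with a 3′ UTR peak in both lines were 912 at a fold of at least 5, 1199 with equal numbers and 1758 without recurring values. Genes in A549/DDP alone were 642 and 451 under the first 2 of these settings. The median fold was 3.73 and 3.95 with 1 peak per merged region, and genes with 3′ UTR peaks alone were 48.5% and 55.3% at a fold of at least 2. Cut lists hold fewer peaks by construction; otherwise the cause was not tested. Of 72 values under alternatives, 36 stayed within the interval of the reported value, or within 1.5 times of a count. The gene counts with merged regions are among these 36 and equal the reported counts by construction. Depth is unknown and limits all of them.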

Other observations

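A small set of 3′ UTR peaks crossed a splice junction, 74 in 62 genes of A549/DDP and 88 in 65 genes of A549. Of them 85.1% and 81.8% were shared with the other list, against 69.3% and 71.7% of all 3′ UTR peaks. Some genes, such as NAA60 in A549, gave several overlapping spliced peaks, so these shares count some sites more than once. The genes named here were chosen after their values were seen. TPT1, which encodes the translationally controlled tumour protein, had such a peak of 497 exonic bases in each list (chromosome 13, 45911034 to 45911608, folds 2.93 and 2.96). LDLRAD2 had one of 266 bases (chromosome 1, 22148715 to 22150456, folds 10.1 and 7.26). HMGB1, a chromatin protein gene (7.53, chromosome 13, 31035389 to 31035821), CALU, which encodes calumenin (5.59 over 4 blocks, chromosome 7, 128398990 to 128409411), and BAX, a pro-apoptotic gene (2.63, chromosome 19, 49464171 to 49465052), had one in A549/DDP. CALU (3.88) and BAX (2.67) had spliced 3′ UTR peaks with other bounds in A549.

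Among genes whose peaks were all in the 3′ UTR in both lists, several had 1 region with nearly the same bounds. DPM2, a subunit gene of dolichol-phosphate mannose synthase, had folds of 8.87 and 17.9 at one site (chromosome 9, 130697378 to 130697852), S100A11, a calcium-binding protein gene, 2.51 and 2.30 (chromosome 1, 152004982 to 152005130), and BSG, which encodes basigin, 2.98 and 2.72 (chromosome 19, 583343 to 583493). CRTAP, a gene of collagen hydroxylation, had 11.9 and 12.2 at overlapping peaks, with 4 separate regions in A549/DDP and 2 in A549.

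Opposite-strand pairs touched 412 of the 3′ UTR peaks of A549/DDP in 225 genes and 445 of A549 in 243 genes. In 68.4% and 60.9% of them the folds of both strands were within 1.25 times of each other. At RHOF and TMEM120B a second pair had the same fold of 4.45 on both strands in A549/DDP. Peaks of the other classes had an opposite-strand peak in 1.85% and 2.23% of cases. The mitochondrial chromosome held 15 and 13 peaks and 0 of them were confined to the 3′ UTR.

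The share of peaks confined to the 3′ UTR was highest on chromosome 22 in both lists, with 41.1% (37.8 to 44.5) for A549/DDP and 42.8% (39.3 to 46.3) for A549. It was lowest on chromosome 5 in A549/DDP, 21.3% (19.2 to 23.5), and on chromosome 14 in A549, 24.4% (21.8 to 27.2). Chromosome 13 had the highest share of A549/DDP 3′ UTR peaks without a counterpart, 51.4% of 72 peaks, and chromosome X that of A549, 46.2% of 106. Over all 3′ UTR peaks these shares were 30.7% and 28.3%. Both chromosomes are extremes picked among many, on few peaks. The same share over all peaks of a chromosome was not computed, so nothing particular to the 3′ UTR can be read from them.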
